A study of Homo sapiens with 6 samples.

Results

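A set of 10 genes of bile acid synthesis and of its control by the bile acid receptor FXR was read out in HepG2 cells. These cells are an established human hepatocarcinoma line. Of all tested genes 6.54% were called lower after glycine, and 4 of the 7 tested genes of this set were. The genes were chosen by name, as the rows of the count files whose Ensembl identifier belongs to CYP7A1, CYP7B1, CYP8B1, CYP27A1, HSD3B7, AMACR, NR1H4, NR0B2, FGF19 or SLC10A1, which makes 10 of 57500 genes. Wild-type HepG2 cells received vehicle or glycine at 10 mM for 24 h, with 3 libraries per group that the submitters call independent. The medium of both groups already held glycine, so the comparison is one of added glycine against the amount in the medium. HepG2 is a tumour line grown alone, without the gut cells or the bile flow that act on these genes in a liver. The comparison asks which of these transcripts differed in abundance once glycine had been added.

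Bile acids are made from cholesterol in hepatocytes. CYP7A1 starts the classic pathway and sets its rate, CYP27A1 and CYP7B1 start an alternative pathway, and the products of both pass through HSD3B7. CYP8B1 directs intermediates towards cholic acid, and AMACR prepares the side chain for shortening in peroxisomes. SLC10A1, also known as NTCP, takes bile acids up from blood. Bile acids bind FXR, the nuclear receptor encoded by NR1H4. FXR raises NR0B2, which encodes the corepressor SHP, and, mainly in the ileum, FGF19, a hormone that acts on hepatocytes through FGFR4 and its co-receptor KLB. Both SHP and FGF19 signalling lower CYP7A1 in liver. Finished bile acids are joined to glycine or taurine by BAAT.

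The libraries held between 31795489 and 58815986 counts, the deepest being glycine replicate 2. Levels are given in CPM, the counts of a gene in each 1000000 counts of its library, with library sizes scaled by the TMM method of edgeR. A gene was called changed at a Benjamini-Hochberg adjusted p under 0.05 in the quasi-likelihood test of edgeR, fitted on all 15492 genes that passed the filter on low counts. By this rule 6.54% of all tested genes were lower and 6.71% were higher with glycine. All 11 hepatocyte markers, among them ALB, APOA1 and HNF4A, were above 3 counts, and their summed level ranged from 31387 to 34932 CPM with vehicle and from 27485 to 30961 CPM with glycine. Of these markers, 2 were called lower and 0 higher, and the part of this shift in the results below was not tested. In bulk libraries fewer expressing cells and less RNA per cell cannot be told apart. Among markers of other liver cells, PTPRC, HBB, CD3E, KDR, TEK and DCN were at 3 counts or fewer in every library. The summed blood cell list, which was carried by LYZ, ranged from 2127 to 2330 CPM with vehicle and from 1698 to 1857 CPM with glycine. The summed fibroblast or stellate cell list, which was carried by PDGFRB, ranged from 27.1 to 31.1 CPM with vehicle and from 21.5 to 22.1 CPM with glycine. The endothelial list ranged from 5.45 to 5.79 CPM with vehicle and from 4.60 to 5.26 CPM with glycine. For the cholangiocyte list the ranges were 1469 to 1774 CPM and 1364 to 1522 CPM. By the same rule 1 of 2 tested fibroblast markers was lower and 1 higher, 1 of 3 endothelial markers was lower, 1 of 3 blood cell markers was lower and 2 higher, and 1 of 4 cholangiocyte markers was lower.

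Of the 10 genes, 7 passed the filter on low counts. CYP8B1, CYP27A1, NR1H4 and NR0B2 were called lower, 0 were called higher, and CYP7A1, HSD3B7 and AMACR were not called. Against this stands the background of 6.54% of tested genes called lower. In 5 of the 7 tested genes the glycine libraries lay entirely below the vehicle libraries. A lack of overlap in either direction was found for 31.6% of all tested genes. The median log2 change of the 7 tested genes was −0.42, beside 0.00 over all tested genes, where log2 changes are glycine minus vehicle throughout. CYP7B1, FGF19 and SLC10A1 were too low to test.

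**Figure D1:**
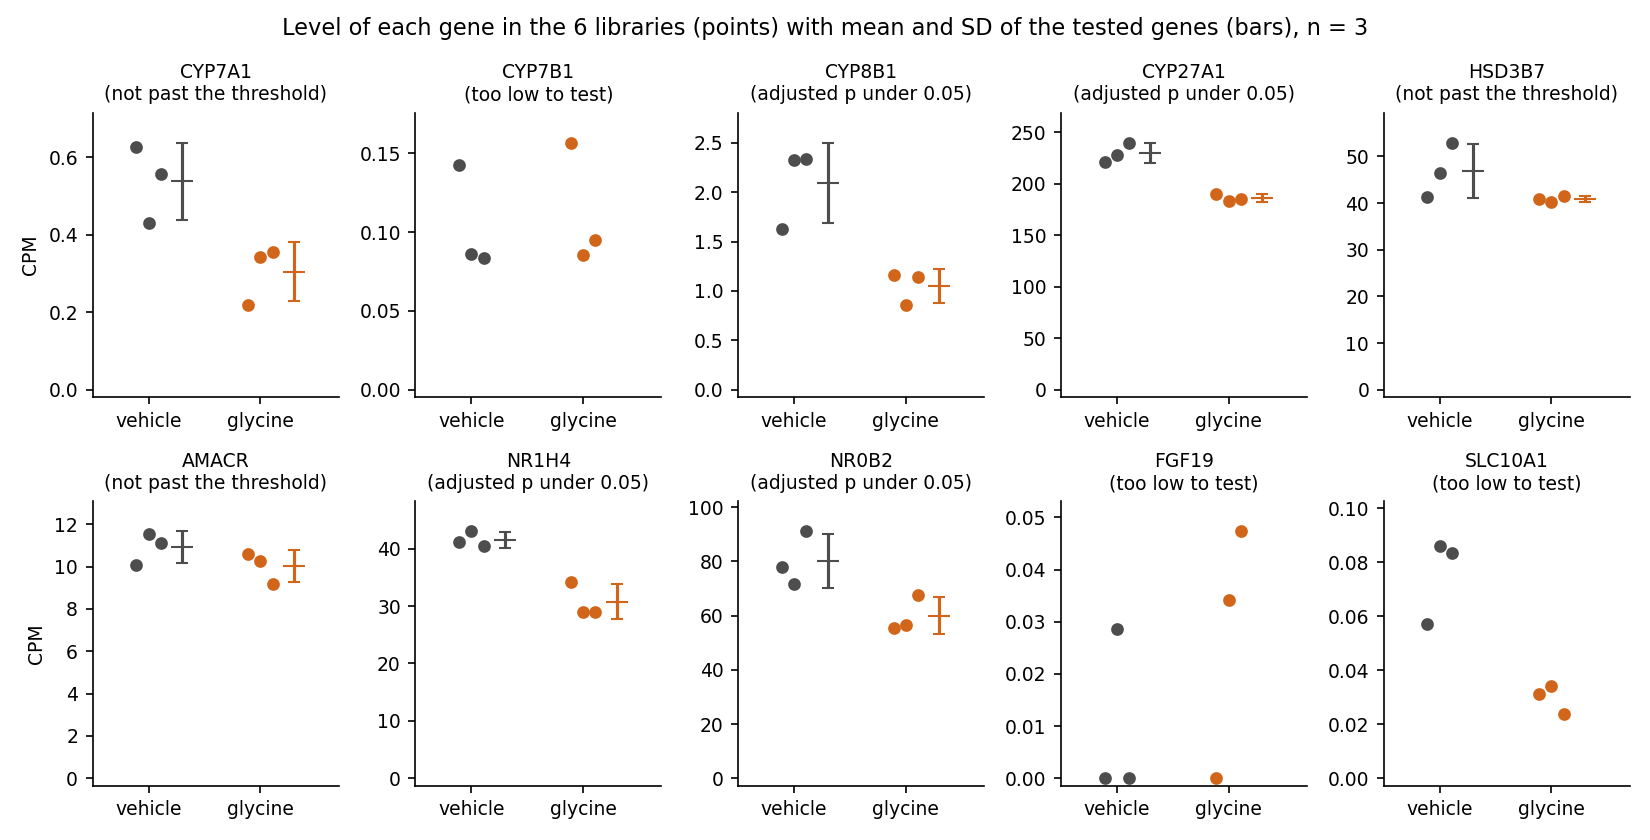
Level in CPM (vertical axes, each from 0) of the 10 genes in 3 vehicle libraries (grey points) and 3 glycine libraries (orange points). Bars show mean and SD (n = 3) of the 7 tested genes, and the glycine points of CYP8B1, CYP27A1, NR1H4, NR0B2 and CYP7A1 all lie below the vehicle points, while those of HSD3B7 and AMACR overlap them.

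The gene that starts the classic pathway, CYP7A1 (ENSG00000167910, GRCh38 chromosome 8, 58490178 to 58500236, minus strand), was scarce in these cells. It stood at 0.628, 0.430 and 0.556 CPM in the vehicle libraries and at 0.219, 0.342 and 0.355 CPM in the glycine libraries. These values rest on 22, 15 and 20 counts and on 7, 20 and 15 counts. Every glycine library was below every vehicle library. The fitted log2 change was −0.77 ± 0.31 (SE, 95% interval −1.43 to −0.11), which did not pass the threshold after adjustment (edgeR adjusted p = 0.121, unadjusted p = 0.0255). A change of CYP7A1 was thus not called, and its interval reaches from a small to a large fall.

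CYP8B1, the enzyme that sets the share of cholic acid, had the largest fitted change among the 7 tested genes (ENSG00000180432, chromosome 3, 42856005 to 42876165, minus strand). Its level was 1.63, 2.32 and 2.34 CPM with vehicle and 1.16, 0.854 and 1.14 CPM with glycine. The groups did not overlap, although vehicle replicate 1 lay nearer to the glycine libraries than to the other vehicle libraries. The mean went from 2.10 ± 0.41 CPM to 1.05 ± 0.17 CPM (SD, n = 3 each), a log2 change of −1.02 ± 0.21 (SE, 95% interval −1.47 to −0.58, edgeR adjusted p = 0.00576), so that CYP8B1 fell by 50.8%. The counts behind these values were 57, 81 and 84 with vehicle and 37, 50 and 48 with glycine. The opposite-strand gene ACKR2 covers 3.20% of the exon length of CYP8B1.

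CYP27A1, the mitochondrial hydroxylase that starts the alternative pathway, was far more abundant and fell by a smaller share (ENSG00000135929, chromosome 2, 218781749 to 218815293, plus strand). It was at 221, 228 and 240 CPM with vehicle and at 190, 183 and 185 CPM with glycine. The groups were well apart, and the glycine libraries were closer together than the vehicle libraries. The mean moved from 230 ± 9.47 to 186 ± 3.61 CPM (SD, n = 3 each), a log2 change of −0.30 ± 0.06 (SE, 95% interval −0.44 to −0.17, edgeR adjusted p = 0.00563), and the level fell by 19.0%.

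The other enzyme of the alternative pathway, CYP7B1, was close to absent (ENSG00000172817, chromosome 8, 64587763 to 64798761, minus strand). It had 5, 3 and 3 counts with vehicle and 5, 5 and 4 counts with glycine, which are sums of 11 and 14 counts. The summed levels were 0.104 and 0.106 CPM, a ratio of 1.02 with an exact interval from 0.428 to 2.47 that covers counting error only. A change within that interval was not detectable at this depth.

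HSD3B7, which acts on the products of both pathways, gave a less settled result (ENSG00000099377, chromosome 16, 30985207 to 30989152, plus strand). The vehicle libraries spread over 41.4, 46.5 and 53.0 CPM, whereas the glycine libraries were at 40.8, 40.2 and 41.5 CPM. The groups overlapped through vehicle replicate 1. The log2 change was −0.20 ± 0.08 (SE, 95% interval −0.38 to −0.02) and was not called (edgeR adjusted p = 0.131). Without vehicle replicate 1 it was −0.30 (edgeR adjusted p = 0.0339), and without vehicle replicate 3 it was −0.11 (edgeR adjusted p = 0.398). HSD3B7 was called in 1 of the 6 fits that left out a library. An unnamed gene on the opposite strand, ENSG00000279196, covers 64.7% of the exon length of HSD3B7. That gene was itself listed at 9.49 to 10.6 CPM with vehicle and 8.29 to 8.73 CPM with glycine, and since the strand setting of the counting is not given, reads of the pair cannot be told apart.

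AMACR, the racemase of the side chain, did not pass the threshold (ENSG00000242110, chromosome 5, 33986178 to 34008108, minus strand). Its values were 10.1, 11.6 and 11.1 CPM with vehicle and 10.6, 10.3 and 9.17 CPM with glycine, so the groups overlapped. The log2 change was −0.13 ± 0.09 (SE, 95% interval −0.33 to 0.07, edgeR adjusted p = 0.423). Readthrough and overlapping gene models on the same strand cover 64.8% of its exon length, and these models held 0 or 1 count in each library. How reads in the shared part were counted is not given, so the level of AMACR may rest on only part of its exons.

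SLC10A1, the uptake carrier, was at the limit of detection (ENSG00000100652, chromosome 14, 69775417 to 69797289, minus strand). It had 2, 3 and 3 counts with vehicle and 1, 2 and 1 counts with glycine. Both groups were thus at or under a floor of 3 counts per library, and no fold is given. The summed counts correspond to 0.0756 CPM (exact 95% interval 0.0326 to 0.149) and 0.0302 CPM (0.00822 to 0.0772), intervals that overlap.

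NR1H4, the gene of FXR itself, was moderately expressed and lower in every glycine library (ENSG00000012504, chromosome 12, 100473708 to 100564413, plus strand). Vehicle libraries were at 41.1, 43.1 and 40.5 CPM and glycine libraries at 34.2, 29.0 and 29.0 CPM. The vehicle libraries lay close together, and glycine replicate 1 was the highest of its group while still below all of them. The mean went from 41.5 ± 1.35 to 30.7 ± 3.04 CPM (SD, n = 3 each), a log2 change of −0.44 ± 0.08 (SE, 95% interval −0.60 to −0.27, edgeR adjusted p = 0.00220). NR1H4 thus fell by 26.2% and had the smallest adjusted p of the 10 genes.

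The sequence before one annotated NR1H4 start is shown because the receptor gene had the smallest adjusted p and because nuclear receptors bind copies of the half-site AGGTCA. It is the window of 250 bases upstream of the RefSeq start, chr12:100503110-100503359 of GRCh38.p14 on the plus strand, and holds 0 bases of any annotated exon. Capitals mark the half-site, here read on the opposite strand.
NR1H4 upstream window: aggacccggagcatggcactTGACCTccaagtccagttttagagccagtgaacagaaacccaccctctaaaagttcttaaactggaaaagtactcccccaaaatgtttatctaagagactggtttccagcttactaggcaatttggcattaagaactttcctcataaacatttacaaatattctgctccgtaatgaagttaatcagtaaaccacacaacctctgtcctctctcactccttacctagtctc
The window holds 1 copy of AGGTCA, counted on both strands, with a GC content of 42.0%. Of 35097 RefSeq windows of the same length, 4239 held at least 1 copy (12.08%), so the match is a description of the letters and marks no binding site. This start lies inside the gene, as longer NR1H4 transcripts begin upstream of it, and the counts do not show which start was used. The same RefSeq table held 5 of the 10 genes, with 2 copies in the window of HSD3B7, 1 in that of SLC10A1 and 0 in those of CYP27A1 and AMACR. Annotated exons of any gene cover all 250 bases of the windows of HSD3B7 and CYP27A1. They cover 58 bases for AMACR and 48 for SLC10A1, so the windows are not alike.

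NR0B2, which encodes SHP and is raised by FXR, was lower as well (ENSG00000131910, chromosome 1, 26911489 to 26913966, minus strand). It stood at 77.8, 71.7 and 91.2 CPM with vehicle and at 55.6, 56.4 and 67.8 CPM with glycine. Replicate 3 was the highest library of each group, and the groups did not overlap. The mean went from 80.2 ± 9.97 to 59.9 ± 6.81 CPM (SD, n = 3 each), a log2 change of −0.42 ± 0.10 (SE, 95% interval −0.63 to −0.21, edgeR adjusted p = 0.0111), so NR0B2 fell by 25.3%. The intervals of NR1H4 and NR0B2 overlap over most of their length.

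FGF19, the hormone of the ileum, was at most at 2 counts in any library (ENSG00000162344, chromosome 11, 69698232 to 69704642, minus strand). It had 0, 1 and 0 counts with vehicle and 0, 2 and 2 counts with glycine. With sums of 1 and 4 counts no fold is given. The exact 95% intervals of the summed levels were 0.000239 to 0.0526 CPM with vehicle and 0.00822 to 0.0772 CPM with glycine.

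To compare the genes with each other, levels were divided by exon length and expressed as RPKM, the CPM of a gene per kilobase of exon. CYP27A1 was the highest with vehicle at 76.9 RPKM, followed by NR0B2 at 69.4 RPKM, and their ranges over 3 libraries overlapped. HSD3B7 followed at 18.8 RPKM, NR1H4 at 12.0 RPKM and AMACR at 2.26 RPKM. CYP8B1 at 0.472 RPKM and CYP7A1 at 0.182 RPKM were lower still. CYP7B1 at 0.0456 RPKM and SLC10A1 at 0.0369 RPKM overlapped in range, and FGF19 was the lowest at 0.00391 RPKM. CYP7B1 had at most 5, SLC10A1 at most 3 and FGF19 at most 2 counts in a library. Their places in this order therefore rest on few reads. With glycine the genes kept this order, from CYP27A1 at 62.4 RPKM and NR0B2 at 51.8 RPKM to CYP8B1 at 0.236 RPKM, CYP7A1 at 0.104 RPKM and FGF19 at 0.0111 RPKM. In that group SLC10A1 and FGF19 were the only neighbours whose ranges overlapped. Much of the exon length of HSD3B7 and AMACR is shared with other gene models, and their RPKM was not corrected for this.

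**Figure D2:**
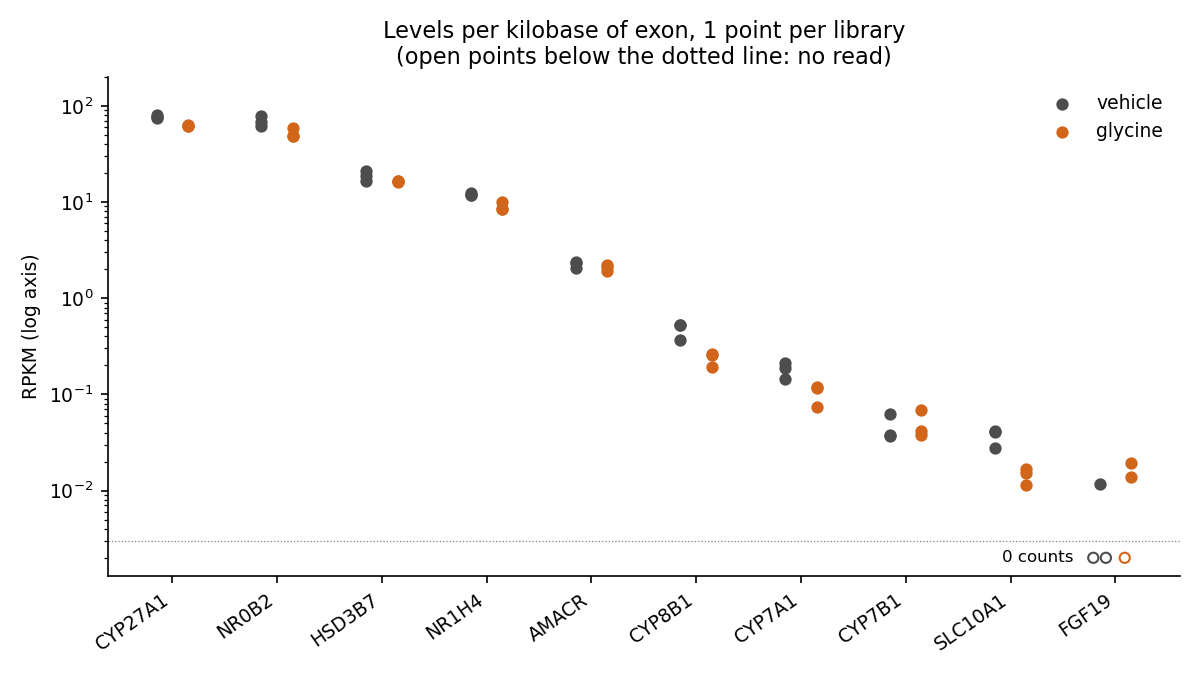
Level of each gene per exon length, in RPKM on a log axis, for the vehicle libraries (grey) and the glycine libraries (orange), with FGF19 libraries at 0 counts as open points under a dotted line. CYP27A1 and NR0B2 lie highest, CYP8B1 and CYP7A1 lie below 1 RPKM, and the order of the group means is the same with vehicle and with glycine.

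Other genes of the pathway were described from 4 lists and a list of FXR targets. Among 12 other synthesis enzymes 9 were tested and 0 were called in either direction, with a median log2 change of −0.01. The conjugating enzyme BAAT, which joins bile acids to glycine, was at 2.34, 2.01 and 2.59 CPM with vehicle and at 3.04, 2.79 and 2.99 CPM with glycine, a log2 change of 0.34 ± 0.14 that was not called (edgeR adjusted p = 0.149). BAAT was chosen after its values were seen, because glycine is its substrate. All 3 electron donors of the cytochrome P450 enzymes were tested and 0 were called. The counts of 0 in both lists stand beside 6.54% of all tested genes called lower and 6.71% called higher. At these shares few calls would be looked for in lists this short. POR had a log2 change of −0.05 and the mitochondrial donors FDX1 and FDXR of −0.03 and 0.03, with overlapping groups for each. CYP27A1, which takes its electrons from FDX1 and FDXR, was called lower and neither donor was called. The difference between CYP27A1 and its donors was not tested.

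Of 11 transporters of bile acids or bile phospholipid other than SLC10A1, 7 were tested, 1 was called lower and 0 higher. Their median log2 change was −0.17. Over all tested genes 6.54% were called lower and 6.71% higher. The gene called, ABCB4, moves phospholipid rather than bile acids into bile. ABCB4 was at 17.4, 15.8 and 16.7 CPM with vehicle and at 14.1, 12.8 and 13.5 CPM with glycine. Its log2 change was −0.31 ± 0.08 (SE, edgeR adjusted p = 0.0216). The call of ABCB4 was lost without vehicle replicate 1 (adjusted p = 0.0678), without glycine replicate 2 (adjusted p = 0.0925) and without glycine replicate 3 (adjusted p = 0.0587). The uptake carriers SLC10A2, SLCO1B1 and SLCO1B3 and the export pump ABCB11 were, like SLC10A1, near 0, with at most 3 counts in a library.

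All 14 partners and regulators of FXR, SHP and CYP7A1 were tested, of which 5 were called lower and 0 higher, with a median log2 change of −0.15. The shares over all tested genes were 6.54% lower and 6.71% higher. The largest fitted fall among those called was that of KLB, the co-receptor through which FGF19 acts. KLB was at 279, 271 and 260 CPM with vehicle and at 157, 141 and 155 CPM with glycine, a log2 change of −0.84 ± 0.07 (SE, edgeR adjusted p = 3.62e-06). Its partner receptor FGFR4 was at 529 to 575 CPM with vehicle and at 501 to 520 CPM with glycine and was not called (log2 change −0.11 ± 0.07, edgeR adjusted p = 0.295). Of the 2 parts of the FGF19 receptor, KLB therefore passed the threshold and FGFR4 did not, and the difference between them was not tested.

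RXRA, the partner with which FXR binds DNA, went from 159 ± 8.87 to 132 ± 6.27 CPM (SD, n = 3 each), a log2 change of −0.28 ± 0.07 (SE, edgeR adjusted p = 0.0148). PPARA, a fatty acid receptor that also acts on bile acid genes, went from 55.7 ± 8.05 to 41.8 ± 1.83 CPM (log2 change −0.41 ± 0.09, edgeR adjusted p = 0.0104). The coactivator PPARGC1A went from 11.2 ± 1.08 to 8.31 ± 0.62 CPM (log2 change −0.43 ± 0.10, edgeR adjusted p = 0.0125). NR5A2, or LRH-1, the factor on the CYP7A1 and CYP8B1 promoters that SHP represses, was at 1.86, 1.83 and 1.34 CPM with vehicle and at 0.783, 1.08 and 1.18 CPM with glycine (log2 change −0.70 ± 0.21, edgeR adjusted p = 0.0445). The groups of these genes did not overlap. NR5A2 was the least firm, being called in 5 of 14 alternative fits with adjusted p up to 0.138. RXRA was lost without glycine replicate 3 (adjusted p = 0.0691), and PPARGC1A reached adjusted p values of 0.0504 and 0.0506 when vehicle replicate 1 or glycine replicate 2 was left out.

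Of 18 FXR target genes, 14 were tested, of which 3 were called lower and 1 higher, with a median log2 change of −0.06. The 3 were NR0B2 and ABCB4, given above, and UGT2B4, an enzyme that conjugates bile acids for removal. UGT2B4 was scarce, at 0.799, 1.89 and 1.22 CPM with vehicle and at 0.595, 0.632 and 0.521 CPM with glycine, a log2 change of −1.15 ± 0.30 (SE, edgeR adjusted p = 0.0214). Its call was lost without vehicle replicate 2 (adjusted p = 0.0873), without glycine replicate 2 (adjusted p = 0.0539) and without glycine replicate 3 (adjusted p = 0.0676). PLTP, the phospholipid transfer protein of plasma, rose from 37.7 ± 2.89 to 50.7 ± 1.05 CPM (SD, n = 3 each), a log2 change of 0.43 ± 0.07 (SE, edgeR adjusted p = 0.00134). The other 10 tested targets were not called. Over all 5 lists, leaving the 10 genes out and taking each gene once, 41 of 49 genes were tested, 7 were called lower and 1 higher. Their median log2 change was −0.07. These counts and those of the FXR targets stand beside 6.54% of all tested genes called lower and 6.71% called higher.

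**Figure D3:**
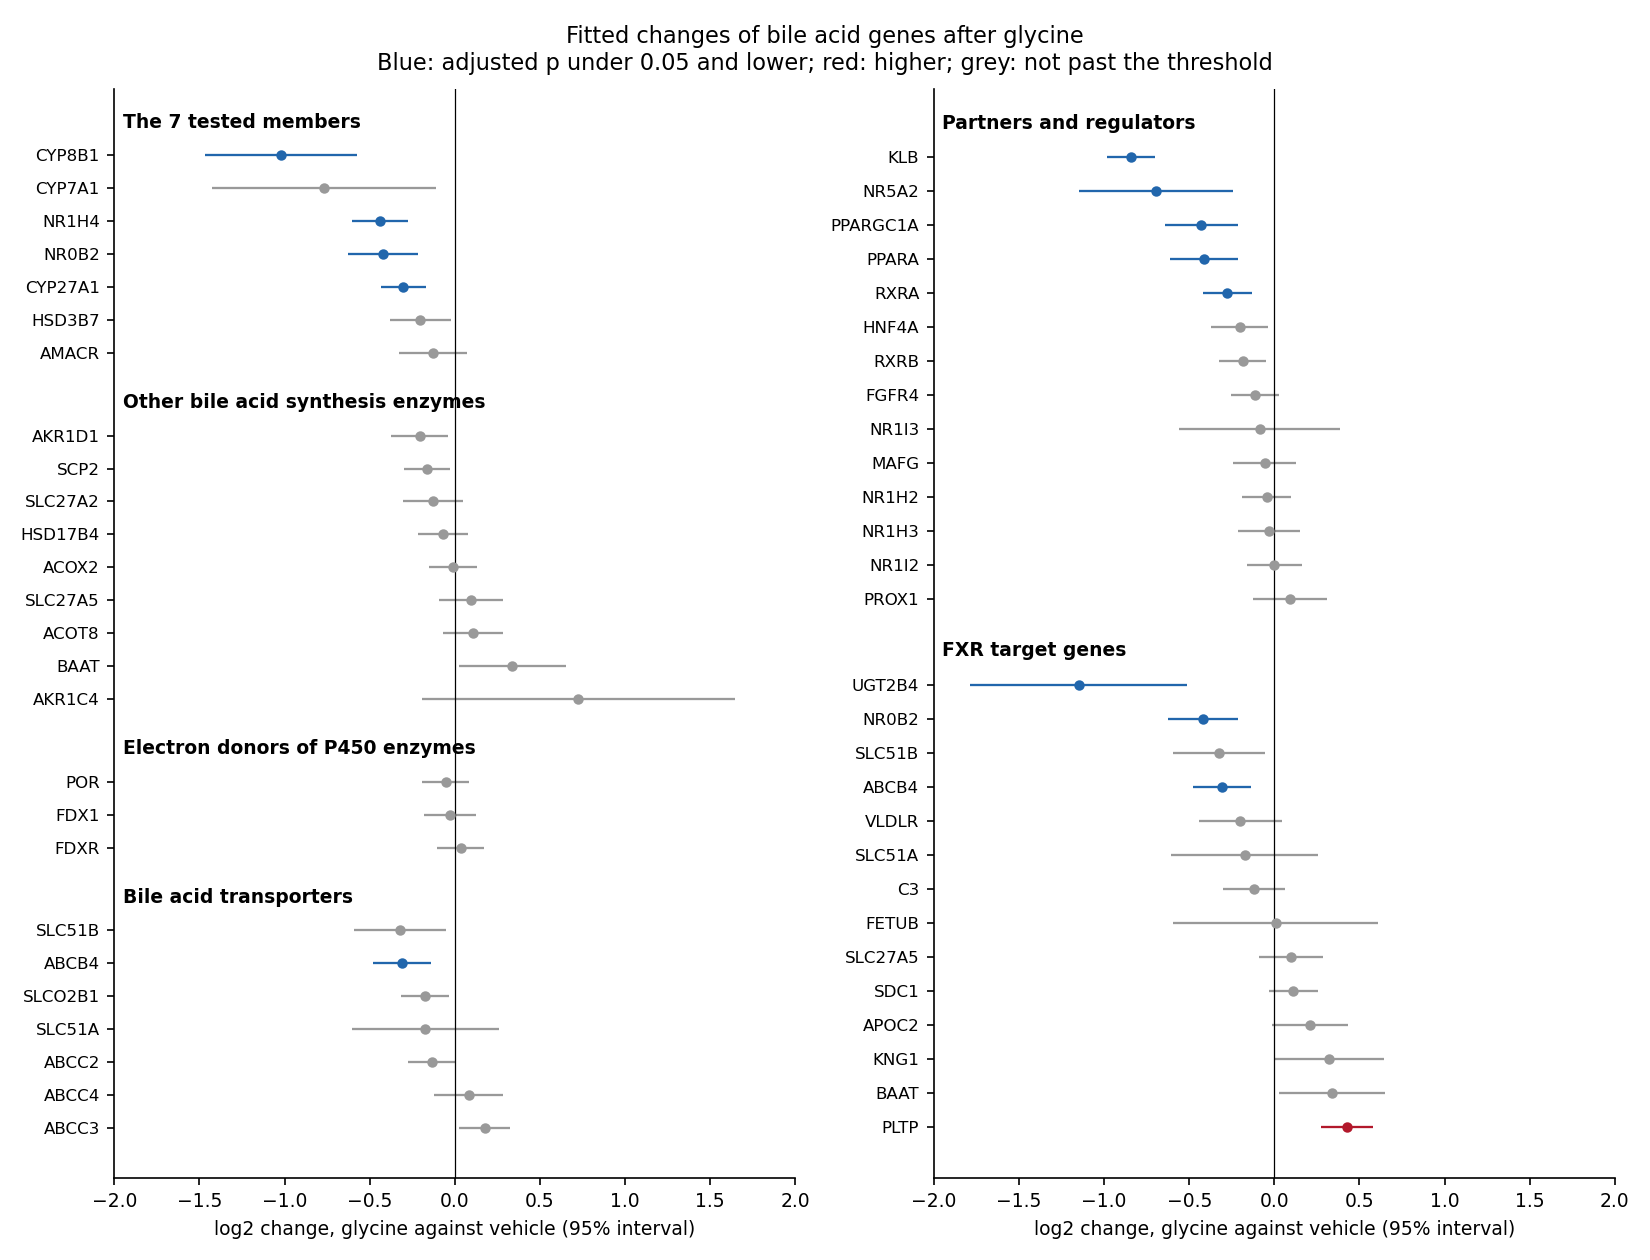
Fitted log2 change (glycine minus vehicle, horizontal axis) with its 95% interval for the tested genes, grouped by list. Blue marks genes called lower and red genes called higher at an adjusted p under 0.05, grey those not called, and the called genes other than PLTP lie below 0.

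The genes most like each called gene were sought among the pathway lists by Pearson's r of log2 CPM over the 6 libraries, which also carry the difference between the groups, so r is a description only. KLB was among the closest pair for CYP8B1 (r = 0.914), CYP27A1 (r = 0.956) and NR1H4 (r = 0.951). UGT2B4 was the other for CYP8B1 (r = 0.879). AKR1D1, the reductase that follows HSD3B7, was the other for CYP27A1 (r = 0.922) and the closest for NR1H4 (r = 0.990). For NR0B2 the closest were FGFR4 (r = 0.982) and SLC51B, a subunit of the basolateral bile acid exporter (r = 0.939).

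The calls of CYP8B1, CYP27A1, NR1H4 and NR0B2 held in all 14 alternative fits. Leaving out each library in turn, the log2 change of CYP8B1 lay between −1.19 and −0.87, with adjusted p between 0.00341 and 0.0358. That of CYP27A1 lay between −0.34 and −0.27, with adjusted p between 0.00876 and 0.0265. NR1H4 lay between −0.53 and −0.40, with adjusted p between 0.000826 and 0.0134. NR0B2 came nearest to the threshold, between −0.53 and −0.32 with adjusted p between 0.00519 and 0.0459.

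**Figure D4:**
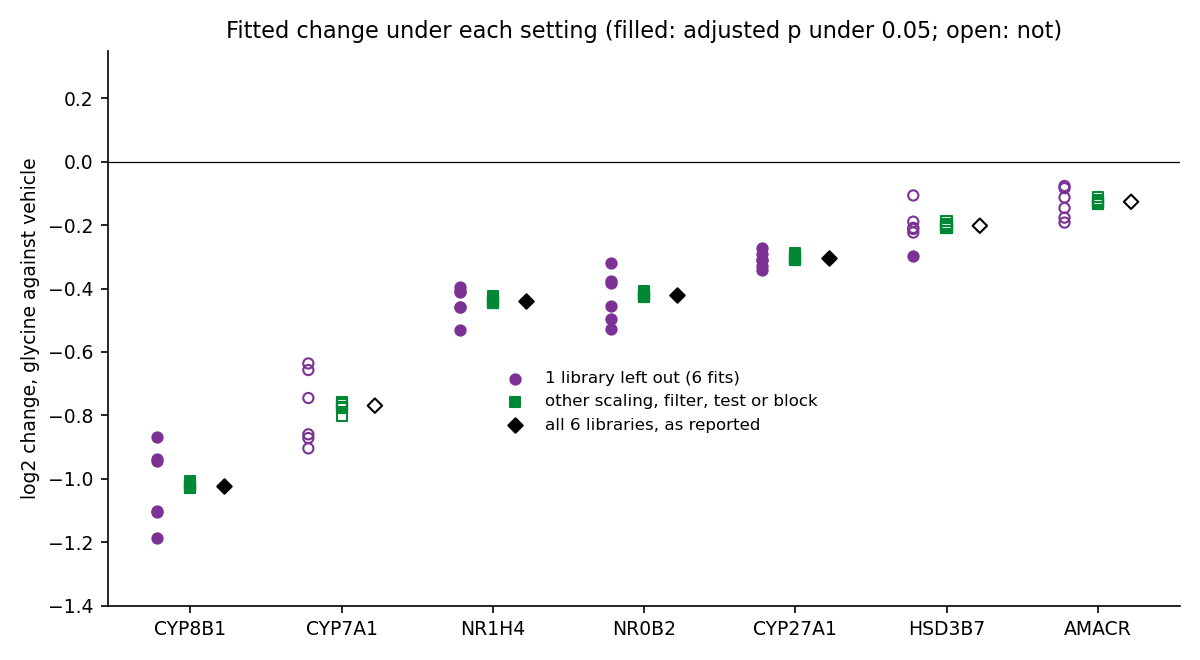
Fitted log2 change (glycine minus vehicle, vertical axis) of the 7 tested genes with each library left out (circles), with another scaling, filter, test or block (squares) and as reported (diamonds), with filled points where the adjusted p was under 0.05 and open points where it was not. CYP8B1, CYP27A1, NR1H4 and NR0B2 are filled throughout, CYP7A1 and AMACR are open throughout, and HSD3B7 is filled in 1 fit.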

How the data were processed

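RNA of HepG2 cells was sequenced in 6 libraries, 3 with vehicle and 3 with glycine, grouped by their labels. The deposited files hold raw read counts per gene, made by the authors and not normalized. The submitters' processing notes name Trimmomatic 0.36, STAR 2.5.2b, featureCounts of Subread 1.5.2 and GRCh38. The strand setting, the annotation and the treatment of reads shared by overlapping genes are not given in the sources used here. Of 57500 identifiers, 56898 were in GENCODE 29 for GRCh38, which gave symbols, coordinates and overlaps, and 54749 had the same span there. Columns of the count files other than the counts served for gene positions and exon length.

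Counts were tested in R 4.3.3 with the two-sided quasi-likelihood test of edgeR 4.0.16, with TMM scaling, the default expression filter (minimum count 10, minimum total 15) and the group as the only term. Adjustment followed Benjamini and Hochberg over 15492 genes. The scripts were tested on simulated data. SE was the size of the log2 change over the root of F. Summed counts of untested genes have exact 95% intervals, which cover counting error only, since the reads carry no molecular identifiers.

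The genes, lists and tests were chosen with earlier results of these data known. Named genes are the 10 genes, up to 6 called members of each list by p, and for each called gene the 2 tested list genes with the highest Pearson r (prior count 2). BAAT, POR, FDX1, FDXR, the low transporters, LYZ and PDGFRB were named outside this rule, after their values were seen. Marker lists covered hepatocytes, fibroblasts or stellate cells, endothelial cells, blood cells and cholangiocytes, with results given as sums and counts. Alternatives were RLE, upper-quartile and total-count scaling, no filter, a filter of 1 CPM in 3 libraries, DESeq2 1.42.0, limma 3.58.1 with voom, a block for replicate number, and each library omitted in turn.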

Additional observations from a re-analysis of the deposited data

How the results depend on the processing

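With 3 libraries per group and between 31795489 and 58815986 counts, changes of genes near 0 could not be resolved. The log2 changes of the 7 tested genes and of the 8 called list genes kept their direction in every alternative run, while those of BAAT, POR, FDX1, FDXR and FGFR4 and the list medians were not recomputed. Of the single-gene results, 189 stayed on their side of the threshold, 18 lost the call and 1 gained it. Leaving out each library in turn gave 587 to 926 genes called higher and 655 to 1010 called lower over all genes, beside 1040 and 1013 with all libraries. The same gave 4 to 5 of the 10 genes called lower, 0 to 1 of the transporters, 3 to 5 of the partners and regulators and 1 to 3 of the FXR targets. With all libraries these were 4 of 7 tested, 1 of 7, 5 of 14 and 3 of 14, beside 6.54% of all tested genes called lower. Deviations of same-numbered libraries did not go together (r = −0.0577, −0.0268 and −0.00258), so the numbers were not taken as pairs. Of the differently numbered libraries, r was 0.214 for vehicle 2 with glycine 1 and 0.214 for vehicle 1 with glycine 3. It was 0.18 for vehicle 3 with glycine 2 and between −0.198 and −0.154 for the others. A fit with such pairs was not run. With a replicate block 866 genes were called higher and 918 lower, and 4 of the 10 genes were lower, as without it. NR5A2 missed the threshold with the replicate block (adjusted p = 0.0541), with DESeq2 (0.0896), with voom (0.0538) and with total-count scaling (0.0512). With other scalings the median log2 change of all genes lay on either side of 0, between −0.00 and 0.02 on the log2 scale. The causes of these losses were not tested.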
